A study of Mus musculus with 8 samples.

Results

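A set of 52 mouse interferon-stimulated genes was followed in livers with and without Hmgb1, chosen by symbol as known members of the family and not by a threshold on their values. Of these, 46 had a probe set that the array annotation assigns to that gene alone, which is the whole of what is called measured below, out of 19938 genes measured in all. The other 6 were Isg15, Igtp, Ifi47, Gbp2 and Oas1g, which lay only on probe sets shared with another gene, and Ifi44, which the annotation used here did not hold.

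Interferon-stimulated genes are switched on when type I, II or III interferon binds its receptor and transcription factors, STAT2 and IRF9 among them, reach the nucleus. Their promoters often hold an interferon-stimulated response element or an interferon-gamma activated site. The products bind or degrade foreign RNA, mark and attack vacuoles that hold microbes, trap viruses at the cell surface and cut peptides for display to T cells. In liver, hepatocytes, Kupffer cells and endothelial cells all respond to interferon.

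The 8 arrays came from livers of male littermates 8 weeks old, 4 with Hmgb1 deleted by Albumin-Cre and 4 that carried floxed Hmgb1 alleles. Hmgb1 encodes a common chromatin protein that bends DNA. The Albumin promoter puts the recombinase Cre in hepatocytes, and whether other liver cells kept their Hmgb1 was not measured. The labels mention Cre for the deleted livers only, so effects of Cre and of losing Hmgb1 cannot be told apart. Fields of the labels are at odds, naming whole liver and a C57Bl/6 background in the protocol but liver stellate cells and Balb/c in the characteristics. Whether every array stands for its own animal is not said, so p-values rest on a spread that may be technical. Deleted 4 stood apart in its bright genes, with albumin (Alb) at 13.26 on the log2 scale against 13.93 to 14.03 on the other 7 arrays, and its highest value at 13.58 against 14.23 to 14.46. The 9 measured hepatocyte markers averaged 13.11, 13.18, 13.11 and 12.74 in deleted livers 1 to 4, against 13.14 to 13.16 in the controls, and 8 of the 9 were lower in deleted livers with 0 past the test. The 11 measured stellate cell markers averaged 8.20 to 8.37 in the deleted and 8.24 to 8.35 in the control livers. Hmgb1 itself read 4.91, 4.20, 4.53 and 4.74 in deleted livers 1 to 4, against 5.35, 5.42, 5.45 and 5.78 in control livers 1 to 4 (log2 fold change −0.91, SE 0.14, limma adjusted p = 0.0216), on a probe set brighter than only 16.4% of genes. Testing all probe sets ended that call (limma adjusted p = 0.0652), as did omitting deleted 3 (0.0730) or deleted 4 (0.0687), and so did omitting control 3 (0.0561) or control 4 (0.0797). Of 34 probe sets that Hmgb1 shares with other genes, 33 were called lower, with a median log2 fold change of −2.15. Control 1 stood apart on the first principal component, which held 37.6% of the variance, at −26.6 against −11.4 to 11.7 for the other 7 arrays.

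Promoters are shown first because a shared response element is what the family is known for. RefSeq windows (build GRCm38.p6) from 250 bases before to 50 bases after the transcript start were available for 39 of the 52 genes. Members past the test described below were Ifit1, Rsad2, Bst2, Cmpk2 and Trim14, and all but Trim14 had a window. They are printed whole, 5′ to 3′, with each match to the response element core in capitals. The core searched was GAAA, any 2 bases and GAAA again, and on the opposite strand TTTC, any 2 bases and TTTC.
Ifit1, chr19:34640639-34640938, plus strand: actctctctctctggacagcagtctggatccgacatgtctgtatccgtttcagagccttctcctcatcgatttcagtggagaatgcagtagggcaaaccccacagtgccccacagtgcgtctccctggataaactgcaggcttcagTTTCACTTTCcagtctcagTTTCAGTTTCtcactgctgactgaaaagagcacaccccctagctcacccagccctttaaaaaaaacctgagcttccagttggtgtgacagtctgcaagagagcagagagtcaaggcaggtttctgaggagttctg
Rsad2, chr12:26456403-26456702, minus strand: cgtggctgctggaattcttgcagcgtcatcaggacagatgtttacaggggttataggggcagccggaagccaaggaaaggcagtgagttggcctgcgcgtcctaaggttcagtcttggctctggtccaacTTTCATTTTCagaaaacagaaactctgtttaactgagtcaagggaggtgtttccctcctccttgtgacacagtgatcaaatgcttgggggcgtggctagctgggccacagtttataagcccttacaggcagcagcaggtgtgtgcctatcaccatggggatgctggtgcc
Bst2, chr8:71537423-71537722, minus strand: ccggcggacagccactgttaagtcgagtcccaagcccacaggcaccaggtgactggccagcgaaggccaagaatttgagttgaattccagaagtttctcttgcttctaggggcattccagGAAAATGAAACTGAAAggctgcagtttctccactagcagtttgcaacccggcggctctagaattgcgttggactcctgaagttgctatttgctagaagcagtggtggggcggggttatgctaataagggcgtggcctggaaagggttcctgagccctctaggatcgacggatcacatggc
Cmpk2, chr12:26468965-26469264, plus strand: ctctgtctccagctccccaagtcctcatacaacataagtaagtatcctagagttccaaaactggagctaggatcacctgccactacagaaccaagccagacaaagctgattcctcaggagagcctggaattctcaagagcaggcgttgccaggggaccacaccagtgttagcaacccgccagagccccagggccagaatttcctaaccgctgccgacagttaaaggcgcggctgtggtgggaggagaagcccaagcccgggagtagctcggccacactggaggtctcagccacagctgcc
Ifit1 held 2 separate matches, starting 104 and 85 bases before the start, and Rsad2 held 1, starting 120 bases before it. The capitals of Bst2 are 2 matches that overlap each other, starting 130 and 124 bases before the start, and 1 of them also overlaps a match to the activated site core TTCNNNGAA. No match lay in the window of Cmpk2. Among all 39 genes with a window, 19 (48.7%) held the response element core on either strand, against 3.99% of the 27025 genes in the promoter table. The activated site core, which reads the same on both strands, was in 10 of the 39 (25.6%) and in 9.55% of all genes.

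The core was also in the window of 12 measured members that did not pass. For 6 of them, picked after their values were seen so as to span the fold changes, each line below gives the match nearest the start with 5 bases on each side and the match in capitals, ordered from the largest fold change, 0.82 for Ifit3, to the lowest, −0.27 for Oas1a. The other 6 are Gbp7, Stat2, Ifih1, Eif2ak2, Oas3 and Trim30a.
Ifit3, chr19:34583402-34583421, plus strand: gtctgTTTCAGTTTCtactt
Gbp3, chr3:142560000-142560019, plus strand: ttcagTTTCTATTTCccaga
Irgm1, chr11:48871430-48871449, minus strand: aaataGAAACCGAAActgat
Ddx58, chr4:40239809-40239828, minus strand: ggcagTTTCGATTTCctatg
Lgals9, chr11:78984895-78984914, minus strand: tgtggTTTCTGTTTCctagc
Oas1a, chr5:120907525-120907544, minus strand: aaatgGAAACTGAAAatcta
Of the 33 members with both a measurement and a window, the 15 with the response element core had a median log2 fold change of 0.51 (range −0.27 to 1.09), and the 18 without it had 0.35 (range −0.12 to 0.75). A match describes these letters in this window and says nothing of whether a factor binds there.

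Expression was then compared between the groups. Interferon-stimulated genes were higher in Hmgb1 deleted livers for 42 of the 46 measured members, against 49.0% of all genes. Their median log2 fold change (deleted minus control) was 0.37, against 0.00 over all genes, with a range of −0.27 to 1.09. Of the 46, 5 rose past the threshold (limma, Benjamini-Hochberg adjusted p under 0.05 over all genes) and 0 fell, with 0.692% of all genes called, 0.296% as higher and 0.396% as lower. Without adjustment 29 members had p under 0.05, as had 9.46% of all genes. In 15 members all 4 deleted livers lay above all 4 controls, where 3.28% of all genes did so, and in 0 members the reverse held, where 2.30% of all genes did so. Of the 53 genes in the whole table that were at least 1.5-fold higher in deleted livers, 13 were members. In bulk liver, fewer or more cells of a type and less or more RNA per cell cannot be told apart. The members were chosen with earlier results of these arrays known, so their share is a description and no test of the set was made.

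**Figure D1:**
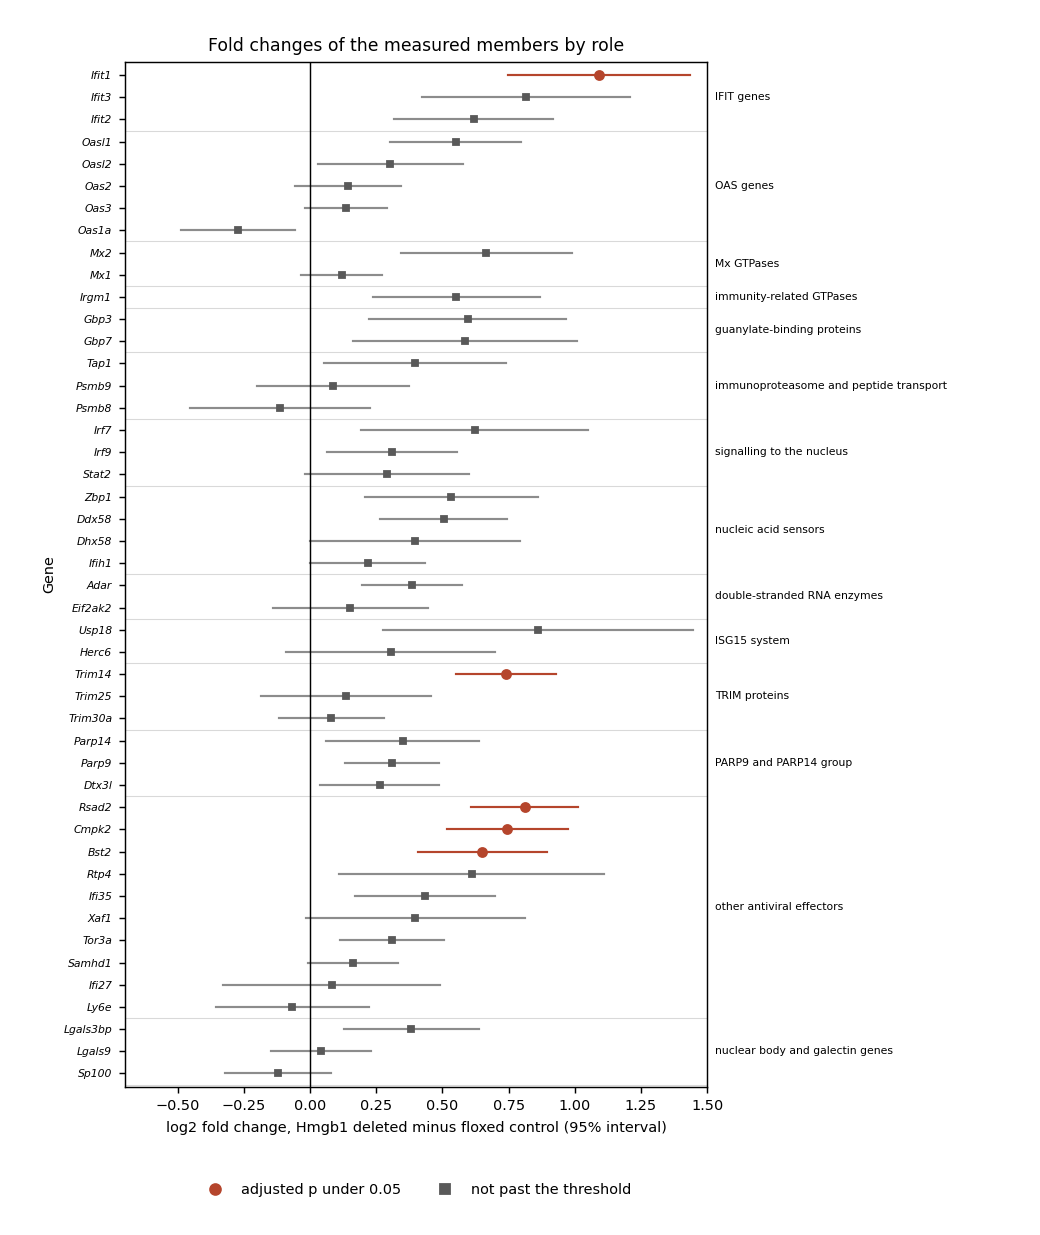
Log2 fold change of each of the 46 measured members, Hmgb1 deleted minus floxed control, with 95% intervals of the limma fit, grouped by role and sorted within each role. Red circles mark the 5 members past the threshold; 28 intervals lie wholly above 0, that of Oas1a wholly below, and 17 span it.

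Rsad2 encodes viperin, an enzyme that makes a chain-terminating nucleotide. It read 8.83, 8.69, 8.95 and 8.91 in deleted livers 1 to 4, against 7.88, 7.91, 8.22 and 8.13 in control livers 1 to 4. The groups did not overlap, and Rsad2 rose by 0.81 on the log2 scale (1.75-fold, SE 0.091, adjusted p = 0.00457). Cmpk2, a mitochondrial nucleotide kinase, is its neighbour on chromosome 12 and read 7.50, 7.44, 7.91 and 7.61 in the deleted livers, against 6.70, 6.87, 6.93 and 6.98 in the controls. It rose by 0.75 (1.68-fold, SE 0.10, adjusted p = 0.0125), again without overlap. Bst2, which tethers budding viruses to the cell surface, read 10.34, 10.22, 10.71 and 10.43 in the deleted livers, against 9.75, 9.95, 9.57 and 9.83 in the controls. Bst2 rose by 0.65 (SE 0.11, adjusted p = 0.0280), again without overlap, with control 2 the highest of the controls.

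Ifit1 encodes a protein that binds foreign RNA at its capped end and blocks its translation. It read 8.97, 8.60, 9.23 and 9.02 in deleted livers 1 to 4, against 7.69, 7.68, 8.30 and 7.79 in control livers 1 to 4. Deleted 2 was the lowest of its group and control 3 the highest of its own, and the groups still did not overlap. Ifit1 rose by 1.09 (2.13-fold, SE 0.16, 95% interval 0.75 to 1.43, adjusted p = 0.0130), the fifth largest positive fold change of all genes measured. Trim14, an adaptor of antiviral signalling at mitochondria, read 9.93, 9.87, 10.13 and 9.95 in the deleted livers, against 9.07, 9.15, 9.38 and 9.32 in the controls. It rose by 0.74 (1.67-fold, SE 0.085, adjusted p = 0.00533).

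**Figure D2:**
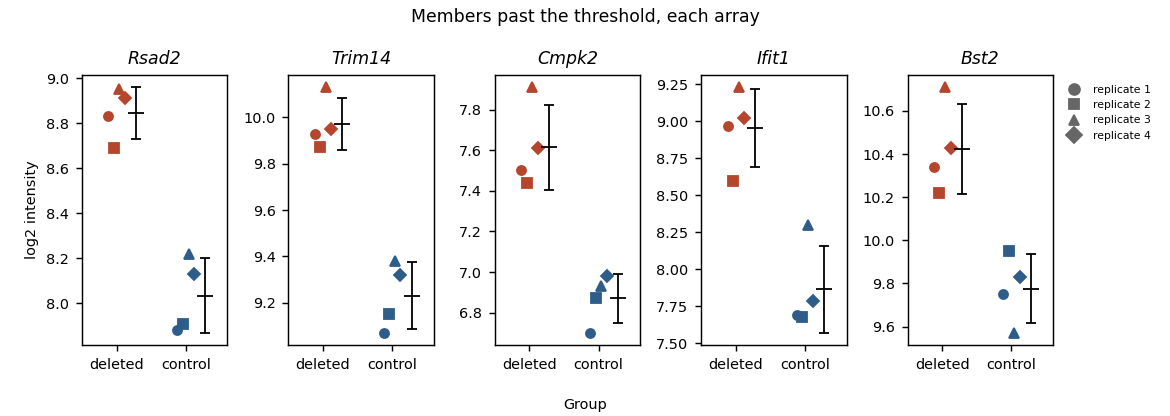
Log2 intensity of the 5 members past the threshold on each array, Hmgb1 deleted (red) left of floxed control (blue), with a marker shape for each replicate number and the mean with SD (n = 4) in black; each panel has its own vertical scale that does not start at 0. In every panel all 4 deleted livers lie above all 4 controls.

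Some of these calls did not hold with 1 array left out, which also leaves fewer arrays to test. Rsad2 and Trim14 passed in all 17 alternative settings. Cmpk2 lost the call without deleted 4 (limma adjusted p = 0.0536), and Ifit1 lost it without deleted 4 (0.0677) and without control 4 (0.0581). Bst2 lost it without deleted 1 (0.0515), deleted 3 (0.0653), deleted 4 (0.103), control 3 (0.0837) or control 4 (0.101), and when all probe sets were tested (0.0807). Only 2 members passed without deleted 4 and 3 without control 4. Without deleted 4 the log2 fold changes of Ifit1, Cmpk2 and Bst2 were still 1.07, 0.75 and 0.65. The genes called in all were then 37, against 138 with all arrays. Oasl1 passed without deleted 2 (0.0493) and without control 1 (0.0252), Ddx58 without control 1 (0.0460) and Mx2 without control 3 (0.0320).

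The IFIT genes had the largest median of the 14 roles. All 3 were higher and did not overlap between groups, with a median log2 fold change of 0.82, and Ifit1 alone passed. Ifit3, which joins IFIT1 in a complex, read 9.01, 8.78, 9.58 and 9.23 in the deleted livers, against 7.94, 8.34, 8.68 and 8.38 in the controls (0.82, SE 0.18, adjusted p = 0.0827). Ifit2, a further partner, had 0.62 (SE 0.14, adjusted p = 0.0832) on a dim probe set, at 6.03 ± 0.30 in deleted and 5.41 ± 0.16 in control livers (SD, n = 4 each). Ifit2 and Ifit3 are neighbours on chromosome 19. IFIT genes resemble each other in sequence, and whether their probes cross-react was not tested.

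Among the OAS genes the members split. OAS enzymes make oligoadenylates that activate RNase L, and 0 of the 5 measured passed, with 4 higher, 1 lower and a median of 0.14. Oasl1, a synthetase-like protein that in mouse restrains translation of Irf7, read 8.60, 8.34, 8.91 and 8.53 in the deleted livers, against 8.22, 7.94, 8.05 and 7.97 in the controls (0.55, SE 0.11, adjusted p = 0.0625), with no overlap. Oasl2, its neighbour on chromosome 5, had 0.30 (SE 0.12, adjusted p = 0.449). Nearer to 0 were Oas2 at 0.14 and its neighbour Oas3 at 0.13. Oas1a went the other way, at 6.92, 6.59, 7.12 and 6.85 in the deleted livers, against 7.08, 7.19, 7.15 and 7.15 in the controls (−0.27, SE 0.098, adjusted p = 0.344). Deleted 3 was level with the controls there, and the other 3 deleted livers lay below all 4 of them. A probe set shared by Oas1a and Oas1g, its close copy, had −0.022 (SE 0.14, adjusted p = 0.989 over all probe sets), so the 2 probe sets that can read Oas1a did not give the same size of difference.

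Interferon-induced GTPases attack viruses or the vacuoles of microbes. All 5 measured were higher, with a median of 0.59, and 0 passed. Mx2, of the myxovirus resistance family, read 6.56, 6.23, 6.72 and 6.50 in the deleted livers, against 5.83, 5.52, 6.25 and 5.75 in the controls (0.67, SE 0.15, adjusted p = 0.0827), and control 3 overlapped the deleted range. Mx1, its relative on chromosome 16, lay on a dim probe set at 5.40, 5.30, 5.40 and 5.57 in the deleted livers, against 5.30, 5.34, 5.33 and 5.22 in the controls (0.12, SE 0.069, adjusted p = 0.715). The immunity-related GTPase Irgm1, a regulator of its family at inner membranes, read 9.84, 9.65, 10.11 and 9.74 in the deleted livers, against 8.88, 9.27, 9.59 and 9.39 in the controls (0.55, SE 0.14, adjusted p = 0.146), without overlap. For the guanylate-binding proteins, Gbp3 read 7.52, 7.16, 8.08 and 7.67 in the deleted livers, against 7.06, 6.79, 7.27 and 6.93 in the controls (0.60, SE 0.17, adjusted p = 0.192). Gbp7, beside it on chromosome 3, read 8.03, 8.21, 9.14 and 8.48 in the deleted livers, against 7.75, 7.89, 7.89 and 7.99 in the controls (0.585, SE 0.19, adjusted p = 0.286). Deleted 3 was far above the rest of its group for Gbp7, and without it the fold change was 0.36.

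Genes of peptide cutting and transport for antigen display ranged from −0.11 to 0.40 on the log2 scale, with 0 of 3 past the test. The median over Psmb8, Psmb9 and Tap1 was 0.085, and it was −0.049 without deleted 3. Tap1, a subunit of the peptide transporter of the endoplasmic reticulum, read 7.71, 7.97, 8.45 and 8.19 in the deleted livers, against 7.43, 7.57, 7.98 and 7.75 in the controls (0.40, SE 0.16, adjusted p = 0.419). Psmb8, a catalytic subunit, read 7.33, 7.0, 7.77 and 7.66 in the deleted livers, against 7.32, 7.56, 7.74 and 7.59 in the controls (−0.11, SE 0.15, adjusted p = 0.964), and Psmb9, another, had 0.085 (SE 0.13, adjusted p = 0.970). These 3 genes stand next to each other on chromosome 17, and their groups overlapped for all 3. The 95% interval of Psmb8 reached from −0.45 to 0.23, wholly below the members' median of 0.37. That of Psmb9 reached from −0.20 to 0.37, with its upper end close to that median, and that of Tap1 from 0.053 to 0.74. Outside the set, the related genes Tap2 and Psmb10 had −0.055 (SE 0.095) and 0.23 (SE 0.088, limma adjusted p = 0.411). Whether transport genes differed from cutting genes was not tested, nor whether these 3 members differed from the rest.

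Signalling and sensing genes lay between. Irf7, a transcription factor that amplifies interferon production, read 9.17, 8.97, 10.04 and 9.48 in the deleted livers, against 8.63, 8.65, 9.02 and 8.87 in the controls (0.62, SE 0.19, adjusted p = 0.248). Irf9, the DNA-binding partner of STAT2, read 9.12, 9.06, 9.43 and 9.13 in the deleted livers, against 8.64, 8.79, 9.12 and 8.95 in the controls (0.31, SE 0.11, adjusted p = 0.344). Both overlapped at control 3, and Stat2 had 0.29 (SE 0.14, adjusted p = 0.587).

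All 4 sensors were higher with 0 past the threshold and a median of 0.45. Ddx58, the RNA sensor RIG-I, read 9.30, 9.32, 9.60 and 9.53 in the deleted livers, against 8.64, 8.95, 9.12 and 9.02 in the controls (0.51, SE 0.11, adjusted p = 0.0802), without overlap. Zbp1, which senses nucleic acid in the Z form, read 8.22, 7.86, 8.68 and 8.37 in the deleted livers, against 7.61, 7.68, 7.96 and 7.75 in the controls (0.53, SE 0.15, adjusted p = 0.181). Dhx58, the regulator LGP2, had 0.40 (SE 0.18) and Ifih1, the sensor MDA5, 0.22 (SE 0.098). Adar, which edits adenosines in double-stranded RNA, read 7.93, 7.84, 8.18 and 8.15 in the deleted livers, against 7.55, 7.62, 7.67 and 7.72 in the controls (0.385, SE 0.085, adjusted p = 0.0832), without overlap. The RNA-activated kinase Eif2ak2, or PKR, read 6.72, 6.65, 7.26 and 6.95 in the deleted livers, against 6.53, 6.67, 6.88 and 6.89 in the controls (0.15, SE 0.13, adjusted p = 0.892), with overlap. Without deleted 3 its fold change was 0.031.

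Usp18 removes the ubiquitin-like ISG15 from proteins and damps the interferon receptor. It read 10.05, 9.28, 10.69 and 9.99 in the deleted livers, against 8.66, 9.02, 9.57 and 9.32 in the controls, the widest spread of the members, so that a fold change of 0.86 (1.82-fold) had an SE of 0.27 and an adjusted p of 0.239. Herc6, the ligase that attaches ISG15 in mouse, read 7.10, 7.45, 7.79 and 7.75 in the deleted livers, against 6.79, 7.13, 7.52 and 7.43 in the controls (0.305, SE 0.18, adjusted p = 0.728), and 0.16 without control 1. Of the TRIM proteins beside Trim14, Trim25, a ubiquitin ligase that acts on RIG-I, read 9.23, 8.98, 9.33 and 9.23 in the deleted livers, against 8.56, 9.21, 9.28 and 9.18 in the controls (0.13, SE 0.15, adjusted p = 0.937). Control 1 was far below its group there, and without it the fold change was −0.031. Trim30a had 0.080 (SE 0.090), and 0.013 without deleted 3.

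Parp9, Dtx3l and Parp14 encode proteins that act on ADP-ribose, with DTX3L the ubiquitin ligase partner of PARP9. The 3 genes are neighbours on chromosome 16, all 3 were higher and 0 passed. Parp9 read 8.64, 8.66, 8.85 and 8.74 in the deleted livers, against 8.26, 8.37, 8.58 and 8.44 in the controls (0.31, SE 0.080, adjusted p = 0.144) and did not overlap. Parp14 read 8.25, 8.07, 8.47 and 8.45 in the deleted livers, against 7.63, 7.89, 8.24 and 8.08 in the controls (0.35, SE 0.13, adjusted p = 0.374), with overlap at controls 3 and 4. Dtx3l, which also did not overlap, had 0.26 (SE 0.10, adjusted p = 0.403).

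The remaining effectors ranged from the called Rsad2, Cmpk2 and Bst2 down to a difference near 0. Rtp4, a transporter-like protein with antiviral action, had 0.61 (SE 0.23, adjusted p = 0.369), and Ifi35 had 0.43 (SE 0.12, adjusted p = 0.180). Xaf1, a partner of the apoptosis inhibitor XIAP, had 0.40 (SE 0.19) and Tor3a, a torsin-family ATPase, 0.31 (SE 0.089, adjusted p = 0.201, no overlap). Samhd1, which breaks down nucleotides, had 0.16 (SE 0.077). Ifi27 had 0.082 (SE 0.19). Ly6e, a surface protein that hinders entry of some viruses, had −0.068 (SE 0.13), which became 0.031 after quantile normalization was applied again. Lgals3bp, a secreted galectin-binding protein, read 11.21, 10.94, 11.46 and 11.02 in the deleted livers, against 10.61, 10.72, 10.97 and 10.80 in the controls (0.38, SE 0.12, adjusted p = 0.226). Sp100, of nuclear bodies, read 7.42, 7.30, 7.44 and 7.46 in the deleted livers, against 7.28, 7.50, 7.71 and 7.62 in the controls (−0.12, SE 0.090, adjusted p = 0.840), and Lgals9, galectin-9, had 0.042 (SE 0.086).

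The 4 deleted livers were not alike, and the members shared their order. Deleted 3 was the highest deleted liver for 42 of 46 members and deleted 2 the lowest for 36. Over all genes those arrays held these places for 27.9% and 16.3%. Control 3 was the highest control for 33 members and control 1 the lowest for 35, against 19.2% and 35.7% of all genes. The median over members of the value minus the gene's mean over 8 arrays was 0.081, −0.030, 0.45 and 0.25 in deleted livers 1 to 4, against −0.37, −0.22, 0.0081 and −0.12 in control livers 1 to 4. Deleted 2 thus lay below control 3, so the groups overlapped. Spread within groups was wide, with a median pooled SD of 0.22 for the members and 0.11 for all genes, and 43 of 46 members were above that of all genes. Without deleted 3 the median log2 fold change of the members was 0.26 with 39 higher, and without control 1 it was 0.28 with 40 higher. Leaving out 1 array moved the fold change of 21 of the 46 members by over 1.5 times, among them 0 of the 5 past the threshold. Deleted 3 did so for 13 members and control 1 for 12.

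**Figure D3:**
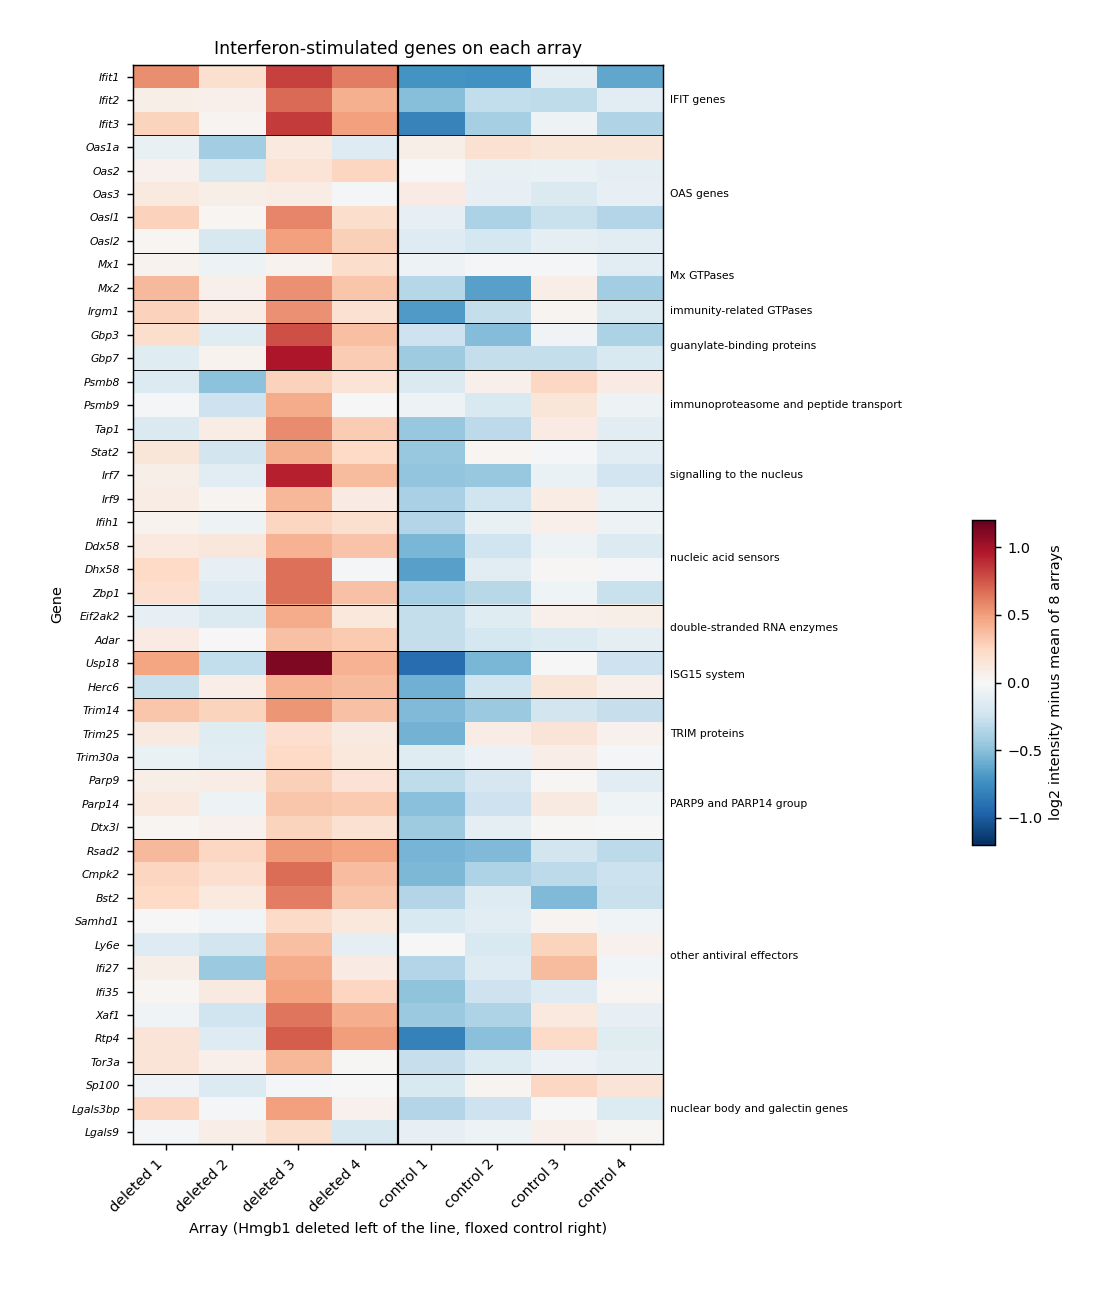
Each of the 46 measured members on each array, as log2 intensity minus the gene's mean over the 8 arrays, Hmgb1 deleted arrays left of the line and floxed controls right, ordered by role. Deleted 3 is the highest of all 8 arrays for 41 members, and control 1 is the lowest control for 35.

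Probe sets shared with another gene were read apart, from the fit over all probe sets. That shared by Igtp and Irgm2, both immunity-related GTPases, read 9.42, 9.20, 9.84 and 9.70 in the deleted livers, against 8.38, 8.48, 9.01 and 8.74 in the controls (0.89, SE 0.17, adjusted p = 0.102). The groups did not overlap. For Isg15 and the related Gm9706 the shared set had 0.20 (SE 0.14), for Gbp2 and Gbp2b 0.335 (SE 0.11), and for Ifi47 and Olfr56 0.055 (SE 0.070). None of these 4, nor that of Oas1a and Oas1g, passed.

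Other genes of the pathway were set beside the members. None of the 15 measured interferon genes passed (limma, 0 of 15, and 0 had an unadjusted p under 0.05), with 10 higher, 5 lower and a median of 0.052. They averaged 5.64 to 5.95 in deleted and 5.64 to 5.91 in control livers, below the array medians of 6.08 to 6.22. Ifne, an epithelial interferon, read 5.62, 5.74, 5.56 and 5.52 in the deleted livers, against 5.58, 5.46, 5.43 and 5.52 in the controls (0.11, SE 0.067, adjusted p = 0.738). Ifna11 read 4.12, 4.16, 3.99 and 4.04 in the deleted livers, against 4.18, 4.23, 4.14 and 4.11 in the controls (−0.088, SE 0.062, adjusted p = 0.819). Both overlapped between groups. Of 22 receptor and signalling genes 11 were higher, 11 lower and 0 past the threshold. Of these, 5 had an unadjusted limma p under 0.05, as had 9.46% of all genes. Irf3, which switches on interferon genes, read 8.69, 8.82, 8.94 and 8.82 in the deleted livers, against 8.47, 8.56, 8.57 and 8.62 in the controls (0.26, SE 0.068, adjusted p = 0.145). Irf2, which competes at the response element, read 9.23, 9.31, 9.28 and 9.37 in the deleted livers, against 9.41, 9.55, 9.60 and 9.55 in the controls (−0.23, SE 0.064, adjusted p = 0.180). Neither overlapped between groups, nor did Socs1 (0.18, SE 0.063) and Irf5 (0.26, SE 0.10), both higher. Of the 22, 3 were thus higher and 1 lower without overlap, where 3.28% and 2.30% of all genes were. Of 16 sensors and adaptors upstream of interferon 0 passed. An unadjusted limma p under 0.05 was found for 2, both higher, beside 9.46% of all genes in either direction. The kinase Ikbke read 8.47, 8.40, 8.57 and 8.43 in the deleted livers, against 8.31, 7.96, 8.33 and 8.24 in the controls (0.26, SE 0.086, adjusted p = 0.30), without overlap. The nuclease Trex1 read 6.86, 6.76, 6.92 and 6.67 in the deleted livers, against 6.61, 6.63, 6.64 and 6.68 in the controls (0.16, SE 0.067, adjusted p = 0.449), with overlap at control 4.

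A further 59 measured interferon-stimulated genes outside the set were higher for 45, lower for 14 and past the threshold for 0, with 18 at an unadjusted p under 0.05 (9.46% of all genes) and a median of 0.088. In 11 of them (18.6%) all deleted livers lay above all controls, where 3.28% of all genes did so. Samd9l, a restriction factor of poxviruses, read 7.01, 7.40, 7.56 and 7.75 in the deleted livers, against 6.22, 6.71, 6.96 and 6.77 in the controls (0.765, SE 0.17, adjusted p = 0.0926). Znfx1, a sensor of double-stranded RNA, read 8.17, 8.01, 8.45 and 8.27 in the deleted livers, against 7.74, 7.84, 7.86 and 7.81 in the controls (0.41, SE 0.088, adjusted p = 0.0778). Both lay without overlap.

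**Figure D4:**
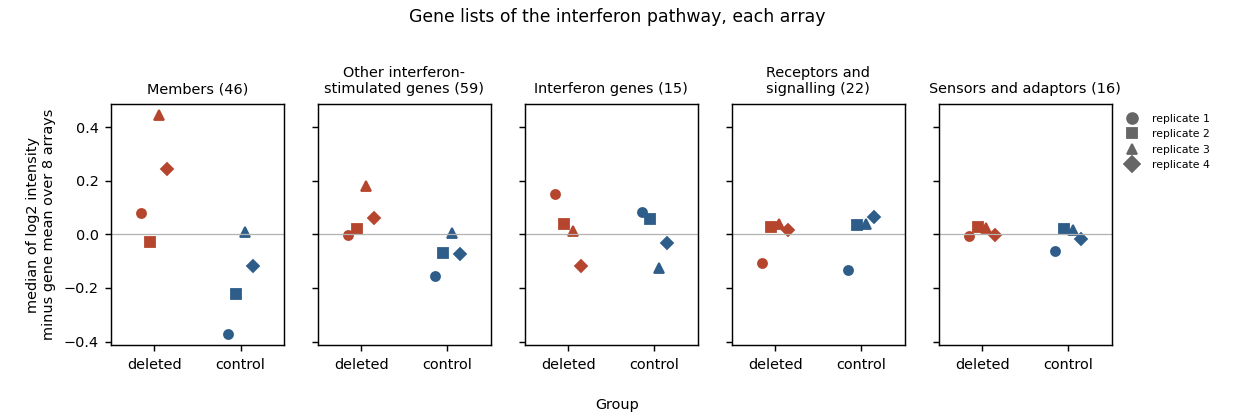
Median over each list of log2 intensity minus the gene's mean over the 8 arrays, for the members and 4 further lists, Hmgb1 deleted (red) left of floxed control (blue), with a marker shape for each replicate number. The members run from −0.030 to 0.45 in deleted and from −0.37 to 0.0081 in control livers, while the sensors and adaptors stay between −0.064 and 0.029 on all 8 arrays.

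Markers of other cells were read on the same arrays. Of 54 measured markers of macrophages, T, B and NK cells, dendritic cells and neutrophils, 0 passed (limma, with 2 at an unadjusted p under 0.05), 31 were higher and 23 lower. Those 2 were the macrophage and Kupffer cell markers Lyz2 (−0.35, SE 0.13) and Vsig4 (−0.23, SE 0.080), both lower in deleted livers. All 54 averaged 6.35 to 6.41 in deleted and 6.37 to 6.48 in control livers. Those of plasmacytoid dendritic cells, known for making interferon, averaged 6.12 to 6.36 in deleted and 6.23 to 6.48 in control livers. Of the 6 measured, 2 were higher and 4 lower with a median of −0.039, from Cox6a2 at −0.185 to Ly6d at 0.028. RMA values never reach 0, so absence cannot be read from them. Sinusoidal endothelial markers did move with the groups. All 9 were lower, at 8.95 to 9.05 in deleted and 9.19 to 9.32 in control livers, and the lectin gene Clec4g fell by 0.62 on the log2 scale (limma adjusted p = 0.00628). The 3 measured erythroid markers were lower with 0 past the threshold, at 8.24 to 8.37 in deleted and 8.53 to 8.76 in control livers. Slc4a1, 1 of them, had only −0.073 with overlap, and 3 further named erythroid markers were not measured. The 5 measured cholangiocyte markers averaged 5.682 to 5.916 in deleted and 5.922 to 5.986 in control livers. Of them 2 were higher, 3 lower and 0 past the threshold, with Sox9 at −0.35 (SE 0.078) without overlap. The part of these lists in the differences of the members was not tested.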

How the data were processed

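Mouse liver RNA was hybridised to 8 1-colour GeneChip arrays. Per the labels' protocols, 150 ng was amplified and labelled with biotin. The deposited log2 intensities were made by the authors with RMA, per the submitters' processing notes, with version and genome build not given in the sources used here. Arrays give no read depth, and 4 arrays a group limit the precision.

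Of 35556 probe sets, 21789 had 1 gene symbol, 1621 several and 12146 none. Each of 19938 genes was read from its single-symbol probe set, the brightest over 8 arrays where it had more than 1, as 999 genes had and 0 of the members. Groups were compared with limma 3.58.1 in R 4.3.3 (lmFit, eBayes, no covariate, 2-sided), with Benjamini-Hochberg adjustment over all genes, a threshold of 0.05 and 95% intervals. The script was tested on simulated data. Alternatives were a dim-gene filter, other probe set rules, 2 scalings, 2 prior variances, array weights, a block for the replicate number and each array left out. Promoters came from RefSeq GRCm38.p6 and were searched with Python 3.11.15. Full values are given for members past the threshold and the 2 of smallest p in each of 14 roles, and otherwise for the 2 of smallest p in each pathway list. Members and lists were chosen with earlier results of these data known.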

Additional observations from a re-analysis of the deposited data

Results flagged for a closer look

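Over 110 groups of 4 values, 1 held a value set far off from its other 3, where chance gives about 1 in 20, or 5.5. Trim25 read 8.56 on control 1, against 9.18 to 9.28 on the other controls. The probe set shared by Irgm2 and Igtp, outside the comparison of single genes, was higher in all 4 deleted livers than in all 4 controls, with a log2 fold change of 0.89 that did not pass (limma adjusted p = 0.102 over all probe sets).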

How the results depend on the processing

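The 17 alternatives left the direction of the set in place, with 39 to 43 members higher and a median log2 fold change of 0.26 to 0.43. The count of members past the threshold, 5, was 9 after quantile normalization again, 10 with array weights and 22 with the replicate number as a block, and from 2 without deleted 4 to 7 without control 1. The count of genes, 138 (59 higher, 79 lower), was 264 after a second quantile normalization (153 and 111), 61 after median centring of each array (33 and 28), 526 with array weights and 325 with the replicate block, and from 37 without deleted 4 to 321 without control 1. Members without overlap, 15, were 15 to 26 with 1 array left out, with 26 without deleted 2 (4.33% of all genes) and 22 without control 3 (4.32%), against 3.28% of all genes with all arrays; over all 8 omissions that share was 4.13% to 6.89%. Whether replicate numbers mark a litter or batch is not stated, and correlations of so few arrays cannot settle it. Deviations from the group means correlated at 0.45, 0.065, −0.081 and 0.42 for numbers 1 to 4. Arrays numbered 1 and 4 correlated best with their own number, and those numbered 2 and 3 did not. Because the pairing is not known, the block value is given here alone. Of 781 values of single members, 10 changed sign, in 6 members near 0: Ly6e to 0.031 after quantile normalization again and 0.011 without control 3; Trim25 to −0.030 with array weights and −0.031 without control 1; Ifi27 to −0.058 with array weights, −0.053 without deleted 3 and −0.022 without control 1; Psmb8 to 0.034 without deleted 2; Psmb9 to −0.049 and Lgals9 to −0.021 without deleted 3. With 1 array left out, Psmb8 ranged from −0.22 to 0.034, Psmb9 from −0.049 to 0.18, Trim25 from −0.031 to 0.21, Ly6e from −0.20 to 0.011, Ifi27 from −0.053 to 0.24 and Lgals9 from −0.021 to 0.11. The cause was not tested. The scalings moved the median of all genes by at most 0.020. Dim probe sets, such as those of Mx1 and Ifit2, carry little signal over background, and the dim filter removed Mx1.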
